A study of Homo sapiens with 12 samples.

Results

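The E2F transcription factors and the retinoblastoma proteins that bind them form the switch between rest and DNA replication in dividing cells. The 10 genes described are E2F1 to E2F8, RB1 and RBL1. They were chosen by name, with earlier results of these data known. Each is represented by its probe set with exactly 1 gene symbol in the array's annotation, or by the brightest such probe set where there were several. They are 10 of 18404 genes with such a probe set, and all 10 were among the 13199 genes kept by a filter on dim probe sets. Each had 1 probe set and lay above its array's 40th percentile on all 12 arrays. Total RNA was hybridised to 12 Human Gene 1.0 ST arrays (Affymetrix), and the values are log2 intensities. The cells were HepG2C3A, an established human line grown from a hepatic tumour and valued for its hepatocyte-like functions. All 4 groups were cultured for 96 h, with 3 arrays in each. They were untreated cells in Petri dishes (Petri control), cells in Petri dishes exposed to acetaminophen for 72 h (Petri treated), untreated cells in a microsystem (microsystem control) and cells in the microsystem exposed to acetaminophen for 72 h (microsystem treated). Acetaminophen is an analgesic that liver enzymes convert to a reactive quinone imine. The sources used here do not give its dose. The cells come from a single tumour line. The comparisons ask how acetaminophen changed these genes in each culture, how the cultures differed with and without it, and whether the acetaminophen effect differed between cultures.

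E2F proteins bind short GC-rich sites in promoters, most of them together with a DP partner protein. E2F1, E2F2 and E2F3 are classed as activators of the genes for DNA replication, while E2F4 and E2F5 repress the same genes when held by the pocket proteins RB1, RBL1 (p107) and RBL2 (p130). Cyclin-dependent kinases phosphorylate the pocket proteins and release the activators late in G1. E2F6 represses through polycomb-type complexes without a pocket protein. E2F7 and E2F8, the atypical members, bind DNA without a DP partner, repress E2F targets in S phase, and are themselves E2F targets, as E2F1 and RBL1 are. In liver, E2F7 and E2F8 are known for their role in making hepatocytes polyploid.

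The arrays carried a hepatocyte profile, with all 10 measured hepatocyte markers kept by the filter and albumin (ALB) between 12.74 and 13.15 on the 12 arrays. None of 5 endothelial markers was kept, against 4 of 6 fibroblast or stellate markers and 3 of 5 leukocyte markers, with PTPRC, the gene of the common leukocyte antigen, at 2.44 to 2.74. The leukocyte markers kept were LYZ at 12.07 to 12.60, CD68 at 8.06 to 9.56 and CD14 at 5.17 to 6.06 on the 12 arrays. The part of other cell types in the results was not tested. The correlation between arrays was 0.991 to 0.995 within groups and 0.976 to 0.993 between groups. A principal component holding 6.78% of the variance set the microsystem arrays numbered 3 (scores -17.2 and -13.9) apart from the other 10 (-4.97 to 11.8). Some of the results that rest on these arrays are therefore also given without both. The label text of Petri treated replicate 3 ends in an asterisk with no explanation. The labels do not state whether the replicates of a group were separate cultures. The p-values then speak only of the spread among these arrays, which may be technical. Comparing 3 arrays with 3 by exact permutation cannot give a two-sided p below 0.1, so tests rest on the limma fit across all genes.

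Promoter sequence was read from RefSeq (GRCh38.p14) for the 8 of 10 genes that have a window there of 250 bases before to 50 after a transcription start. E2F3 has a pair of windows, so 9 were searched, and E2F5 and E2F8 are named only. The E2F words searched, on both strands, were TTTCCCGC, TTTGGCGC, TTTCGCGC and TTTGCCGC. They occurred in 4 of the 8 genes, E2F1 and RBL1 with 2 matches each and E2F2 and E2F3 with 1 each, and in 3.31% of all 35116 windows. E2F4, E2F6, E2F7 and RB1 held none of these letters in their windows, of which RB1's does not lie at the gene's annotated start. The E2F3 match lay in the first of its windows. The other E2F3 window held no E2F word and also does not lie at the gene's annotated start. The CCAAT box was searched as CCAAT and occurred 4 times in the E2F7 window, 4 times in the first E2F3 window and 3 times in that of E2F1, and in 34.6% of all windows. The cell cycle homology region (CHR), searched as TTTGAA, occurred once, in E2F3, and in 15.2% of all windows. The 100 bases just before the start are shown, on the gene's strand, for the genes with an E2F word, and for E2F7 because its RNA differed most with acetaminophen. Capitals mark E2F words in the first 4 sequences and CCAAT boxes, which read ATTGG on this strand, in E2F7. They are E2F1 at chr20:33686386-33686485 (minus strand), E2F2 at chr1:23531234-23531333 (minus), E2F3 at chr6:20401779-20401878 (plus), RBL1 at chr20:37095998-37096097 (minus) and E2F7 at chr12:77065570-77065669 (minus).
E2F1: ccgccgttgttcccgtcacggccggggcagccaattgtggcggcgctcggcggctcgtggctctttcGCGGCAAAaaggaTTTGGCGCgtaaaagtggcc
E2F2: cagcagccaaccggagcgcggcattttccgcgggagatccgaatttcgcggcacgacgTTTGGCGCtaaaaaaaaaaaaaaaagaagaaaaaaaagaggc
E2F3: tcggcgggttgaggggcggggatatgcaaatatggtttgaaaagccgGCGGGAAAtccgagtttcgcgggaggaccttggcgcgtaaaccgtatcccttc
RBL1: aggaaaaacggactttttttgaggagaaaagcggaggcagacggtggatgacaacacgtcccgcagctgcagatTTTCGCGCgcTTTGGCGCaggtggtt
E2F7: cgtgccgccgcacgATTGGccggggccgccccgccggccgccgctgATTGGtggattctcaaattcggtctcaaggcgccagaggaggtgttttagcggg
A match describes the letters in this window and is not a measured binding site.

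With acetaminophen in Petri dishes, 6 of the 10 genes rose (E2F1, E2F2, E2F7, E2F8, RB1 and RBL1) and none fell. In the microsystem 6 rose (E2F1, E2F2, E2F3, E2F7, E2F8 and RBL1) and E2F5 fell. A gene is said to have risen or fallen when its adjusted p in the limma fit was under 0.05. Over all genes tested, 8.38% rose and 1.98% fell in Petri dishes, and 6.39% rose and 2.67% fell in the microsystem. The groups of 3 arrays did not overlap for 8 of the 10 genes in Petri dishes, against 34.5% of all genes, and for 9 of 10 in the microsystem, against 27.6%. The median log2 difference of the 10 genes was 0.54 in Petri dishes and 0.39 in the microsystem, beside 0.01 and -0.01 over all genes. Both treatment effects were fitted with a shared estimate of spread but have separate controls. Because RNA came from bulk cultures, more RNA per cell and a larger share of cells that carry the RNA cannot be told apart.

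Between cultures, 6 of the 10 genes were higher in the microsystem than in Petri dishes among controls (E2F2, E2F3, E2F4, E2F7, RB1 and RBL1) and 6 among treated cells (E2F2, E2F3, E2F4, E2F6, E2F8 and RBL1), and none was lower by the test. Over all genes 26.5% rose and 18.3% fell among controls, and 22.6% rose and 18.9% fell among treated cells. Groups did not overlap for 9 of the 10 genes among controls and 7 of 10 among treated cells, against 52.4% and 52.9% of all genes. The median difference of the 10 genes was 0.32 in both comparisons, beside 0.01 and 0.00 over all genes. Each culture comparison shares its arrays with the treatment comparisons.

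**Figure D1:**
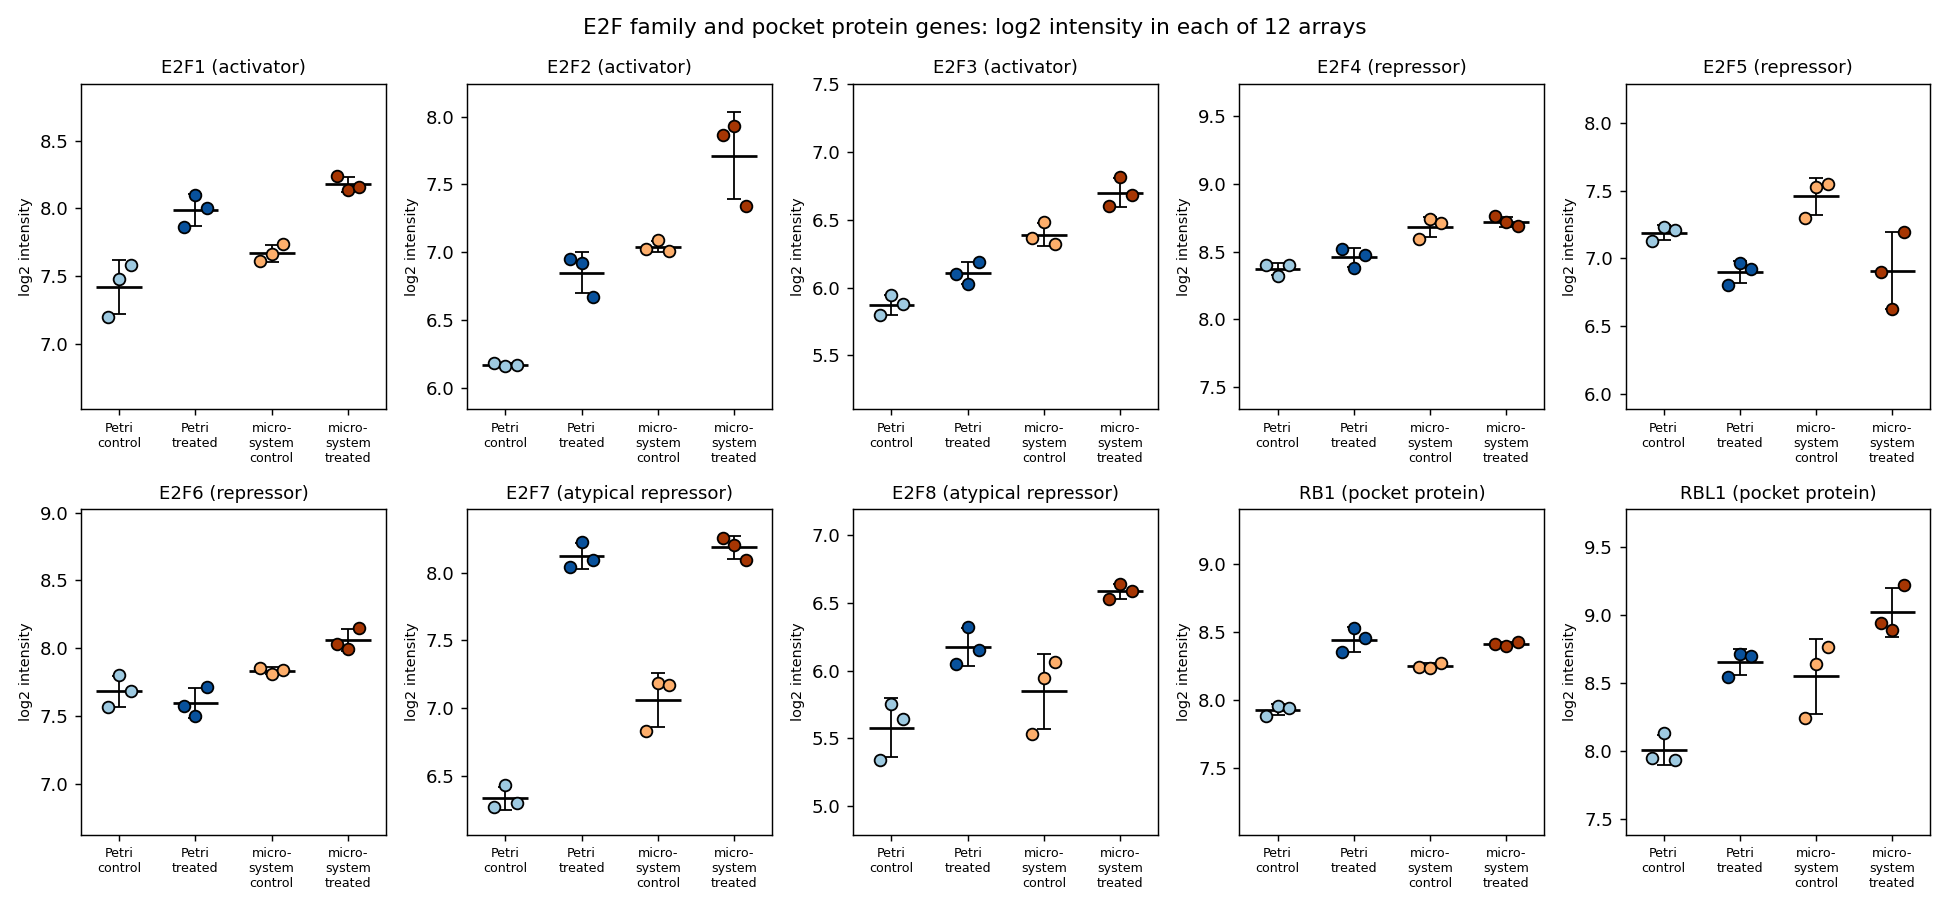
Log2 intensity (y axis, each panel spanning the same width in log2 units around its own centre) of the 10 genes on each of 12 arrays, by group on the x axis; points are arrays, bars are means and error bars are SDs of 3 arrays. E2F7 lies between 6.27 and 6.43 in Petri controls, between 6.83 and 7.18 in microsystem controls, and above 8.04 in both treated groups, while E2F5 is lower in both treated groups than in their controls.

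E2F1, the best known activator, was at 7.20, 7.48 and 7.59 in the Petri controls and at 7.86, 8.10 and 8.0 in the Petri treated cells. It was at 7.61, 7.66 and 7.74 in the microsystem controls and at 8.24, 8.14 and 8.16 in the microsystem treated cells. All treated arrays lay above all control arrays of both cultures. It rose 1.48-fold in Petri dishes (0.56 ± 0.10 SE on the log2 scale, adjusted p = 0.00329) and 1.42-fold in the microsystem (0.51 ± 0.10, adjusted p = 0.00818). The group means ran from Petri control (7.42 ± 0.20 SD, n = 3) through microsystem control (7.67 ± 0.06) and Petri treated (7.99 ± 0.12) to microsystem treated (8.18 ± 0.05). The neighbours that differ by culture alone did not pass the test, with 0.25 ± 0.10 among controls (adjusted p = 0.0583) and 0.19 ± 0.10 among treated cells (adjusted p = 0.14). The difference among controls did pass without Petri control replicate 3, with an adjusted p of 0.0252, the lowest of its alternatives, which reached 0.25.

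E2F2, an activator best known from blood cell precursors, was at 6.19, 6.16 and 6.17 in the Petri controls, 6.95, 6.92 and 6.67 in the Petri treated cells, 7.02, 7.09 and 7.01 in the microsystem controls and 7.87, 7.93 and 7.34 in the microsystem treated cells. The 4 groups did not overlap, and replicate 3 was the lowest array in both treated groups. It rose 1.60-fold with acetaminophen in Petri dishes (0.68 ± 0.13 SE, adjusted p = 0.00512) and 1.59-fold in the microsystem (0.67 ± 0.13, adjusted p = 0.00753). Without both microsystem arrays numbered 3 the microsystem difference was 0.84 (adjusted p = 0.00161). E2F2 also had the largest culture difference of the 10 genes, 1.83-fold among controls (0.87 ± 0.13, adjusted p = 0.000131) and 1.82-fold among treated cells (0.86 ± 0.13, adjusted p = 0.000165). Untreated cells in the microsystem (7.04 ± 0.04 SD) thus had a higher mean than treated cells in Petri dishes (6.85 ± 0.15), a pair of groups that was not tested.

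E2F3, the activator most closely tied to normal proliferation, was at 5.80, 5.94 and 5.88 in the Petri controls, 6.10, 6.03 and 6.19 in the Petri treated cells, 6.37, 6.48 and 6.32 in the microsystem controls and 6.60, 6.81 and 6.68 in the microsystem treated cells. Its groups did not overlap and followed the same order as those of E2F2. The culture differences passed the test, with 1.43-fold among controls (0.52 ± 0.08 SE, adjusted p = 0.000253) and 1.51-fold among treated cells (0.59 ± 0.08, adjusted p = 0.0001). The acetaminophen difference was 0.23 ± 0.08 in Petri dishes (adjusted p = 0.096) and 0.31 ± 0.08 in the microsystem (1.24-fold, adjusted p = 0.0367). The microsystem call was lost in 8 of 24 alternatives, with adjusted p from 0.0232 to 0.151. Among them were the fits without microsystem control replicate 1 or 3, without microsystem treated replicate 2 or 3, and without both arrays numbered 3.

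E2F4, the main partner of the pocket proteins in resting cells, was at 8.40, 8.32 and 8.40 in the Petri controls, 8.52, 8.38 and 8.48 in the Petri treated cells, 8.60, 8.74 and 8.71 in the microsystem controls and 8.76, 8.72 and 8.69 in the microsystem treated cells. Treated and control arrays overlapped in both cultures, and the treatment differences were 0.08 ± 0.07 SE (adjusted p = 0.499) and 0.04 ± 0.07 (adjusted p = 0.766). Their 95% confidence intervals ran from -0.08 to 0.24 in Petri dishes and from -0.12 to 0.20 in the microsystem. It was higher in the microsystem, 1.24-fold among controls (0.31 ± 0.07, adjusted p = 0.004) and 1.2-fold among treated cells (0.26 ± 0.07, adjusted p = 0.0112). The difference among treated cells lost its call without Petri treated replicate 2 (adjusted p = 0.0553, the highest in a range from 0.00272 over its alternatives).

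E2F5, a repressor that works mainly with the pocket protein RBL2, was the only 1 of the 10 genes that fell in a treatment comparison. It was at 7.13, 7.23 and 7.21 in the Petri controls and 6.81, 6.96 and 6.92 in the Petri treated cells. It was at 7.30, 7.53 and 7.55 in the microsystem controls and 6.90, 6.63 and 7.20 in the microsystem treated cells. In each culture all treated arrays lay below all controls. It fell 1.47-fold in the microsystem (-0.55 ± 0.12 SE, adjusted p = 0.0149), where it ranked 86 from the largest fall among 13199 genes. The difference in Petri dishes was -0.29 ± 0.12 (adjusted p = 0.146). The microsystem call was lost without microsystem control replicate 2 (adjusted p = 0.0591) or microsystem treated replicate 2 (-0.41, adjusted p = 0.0625) and when only the arrays of that culture were fitted (adjusted p = 0.0792), in a range from 0.00362 over its alternatives. The Petri difference passed in 2 of 24 alternatives (adjusted p from 0.032 to 0.295). The culture differences were 0.27 ± 0.12 among controls (adjusted p = 0.0902) and 0.01 ± 0.12 among treated cells (adjusted p = 0.959). The difference among controls passed without microsystem control replicate 1, microsystem treated replicate 2 or microsystem treated replicate 3, with adjusted p from 0.037 to 0.215 over its alternatives.

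E2F6, the repressor that works with polycomb proteins, was at 7.57, 7.80 and 7.68 in the Petri controls, 7.58, 7.50 and 7.71 in the Petri treated cells, 7.86, 7.81 and 7.84 in the microsystem controls and 8.03, 7.99 and 8.15 in the microsystem treated cells. The Petri groups overlapped, and the microsystem groups did not. Neither treatment difference passed the test, with -0.09 ± 0.08 SE in Petri dishes (adjusted p = 0.553) and 0.22 ± 0.08 in the microsystem (adjusted p = 0.114). Among treated cells E2F6 was 1.38-fold higher in the microsystem (0.46 ± 0.08, adjusted p = 0.000737), while among controls the difference was 0.15 ± 0.08 (adjusted p = 0.173).

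E2F7, an atypical repressor, had the largest acetaminophen response of the 10 genes. It was at 6.27, 6.43 and 6.30 in the Petri controls and 8.04, 8.23 and 8.10 in the Petri treated cells. In the microsystem it was at 6.83, 7.18 and 7.17 in the controls and 8.26, 8.21 and 8.09 in the treated cells. The 6 treated arrays lay close together and far above the 6 controls. It rose 3.46-fold in Petri dishes (1.79 ± 0.10 SE, adjusted p = 4.0e-07), where it ranked 4 from the largest rise among 13199 genes. It rose 2.18-fold in the microsystem (1.12 ± 0.10, adjusted p = 8.6e-05), with rank 20. Controls differed by culture, with 1.66-fold more in the microsystem (0.73 ± 0.10, adjusted p = 7.3e-05), while treated cells differed by 0.06 ± 0.10 (adjusted p = 0.657, 95% confidence interval -0.15 to 0.28), with overlapping arrays.

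E2F8, the other atypical repressor, was at 5.34, 5.76 and 5.64 in the Petri controls, 6.05, 6.32 and 6.15 in the Petri treated cells, 5.54, 5.94 and 6.06 in the microsystem controls and 6.53, 6.64 and 6.59 in the microsystem treated cells. All treated arrays but Petri treated replicate 1 lay above all controls of both cultures, and that array at 6.05 lay just under the highest microsystem control at 6.06. It rose 1.51-fold with acetaminophen in Petri dishes (0.59 ± 0.14 SE, adjusted p = 0.0143) and 1.67-fold in the microsystem (0.74 ± 0.14, adjusted p = 0.00602). The Petri call was lost without Petri control replicate 1 (0.47, adjusted p = 0.0546) or Petri treated replicate 2 (0.52, adjusted p = 0.0726), in a range from 0.00177 over its alternatives. The culture difference was 0.27 ± 0.14 among controls (adjusted p = 0.129), where replicate 1 of each control group was its lowest array, and it passed without microsystem control replicate 1 (0.42, adjusted p = 0.014, the lowest in a range up to 0.421). Among treated cells E2F8 was 1.33-fold higher in the microsystem (0.41 ± 0.14, adjusted p = 0.0271). That call was lost without Petri treated replicate 1 or 3 or microsystem treated replicate 2 or 3, and with quantile normalization (adjusted p = 0.0524). Its adjusted p ran from 0.00389 to 0.0935 over its alternatives.

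RB1, the retinoblastoma protein gene, was at 7.88, 7.96 and 7.94 in the Petri controls and 8.35, 8.53 and 8.45 in the Petri treated cells. In the microsystem it was at 8.24, 8.23 and 8.27 in the controls and 8.41, 8.40 and 8.43 in the treated cells. The Petri controls stood lowest, and no treated array lay below a control array of either culture. RB1 rose 1.43-fold in Petri dishes (0.52 ± 0.07 SE, adjusted p = 0.000622), and its difference in the microsystem was 0.16 ± 0.07 (adjusted p = 0.165). Among controls it was 1.25-fold higher in the microsystem (0.32 ± 0.07, adjusted p = 0.00231), and among treated cells the difference was -0.03 ± 0.07 (adjusted p = 0.752), with overlapping arrays.

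RBL1, which encodes p107, was at 7.95, 8.13 and 7.93 in the Petri controls, 8.54, 8.72 and 8.70 in the Petri treated cells, 8.24, 8.64 and 8.77 in the microsystem controls and 8.94, 8.89 and 9.23 in the microsystem treated cells. Microsystem controls overlapped Petri treated cells, and the other groups stood apart from each other. It rose 1.57-fold with acetaminophen in Petri dishes (0.65 ± 0.13 SE, adjusted p = 0.00656) and 1.39-fold in the microsystem (0.47 ± 0.13, adjusted p = 0.0382). The microsystem call was lost in 10 of 24 alternatives, with adjusted p from 0.00811 to 0.119. They included the fits without microsystem control replicate 1 or 2, without any 1 of the microsystem treated replicates, without both microsystem arrays numbered 3, and without Petri treated replicate 2 or 3. Among controls RBL1 was 1.46-fold higher in the microsystem (0.54 ± 0.13, adjusted p = 0.00394). Among treated cells it was 1.29-fold higher (0.37 ± 0.13, adjusted p = 0.0352), a call lost without any 1 of the Petri treated replicates, without microsystem treated replicate 3 or without both microsystem arrays numbered 3, with adjusted p from 0.0105 to 0.141 over its alternatives.

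The acetaminophen effect was compared between cultures as a difference of differences, microsystem minus Petri. None of the 10 genes passed in limma, where 1 gene of 13199 rose (0.00758%) and 3 fell (0.0227%). At an unadjusted p under 0.05 there were 3 of the 10 genes, E2F7, RB1 and E2F6, against 7.35% of all genes. The difference of E2F7 was -0.67 ± 0.14 SE (95% confidence interval -0.97 to -0.36), a smaller rise in the microsystem that did not pass (adjusted p = 0.175). Without both microsystem arrays numbered 3 it was -0.565 (adjusted p = 0.317). Without microsystem control replicate 1 the difference of E2F7 was -0.78 and passed (adjusted p = 0.047). With array weights it also passed (adjusted p = 0.0422, the lowest of its alternatives, which reached 0.483). The difference of RB1 was -0.35 (interval -0.57 to -0.14, adjusted p = 0.385) and that of E2F6 was 0.31 (interval 0.05 to 0.57, adjusted p = 0.597). For both E2F7 and RB1 the controls differed between cultures while treated cells differed by 0.06 and -0.03. For the activators the difference of effect was -0.06 (E2F1), -0.01 (E2F2) and 0.08 (E2F3), and the widest of their intervals, that of E2F2, ran from -0.40 to 0.39. The other values were -0.04 for E2F4, -0.26 for E2F5 (interval -0.63 to 0.11), 0.14 for E2F8 and -0.17 for RBL1.

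**Figure D2:**
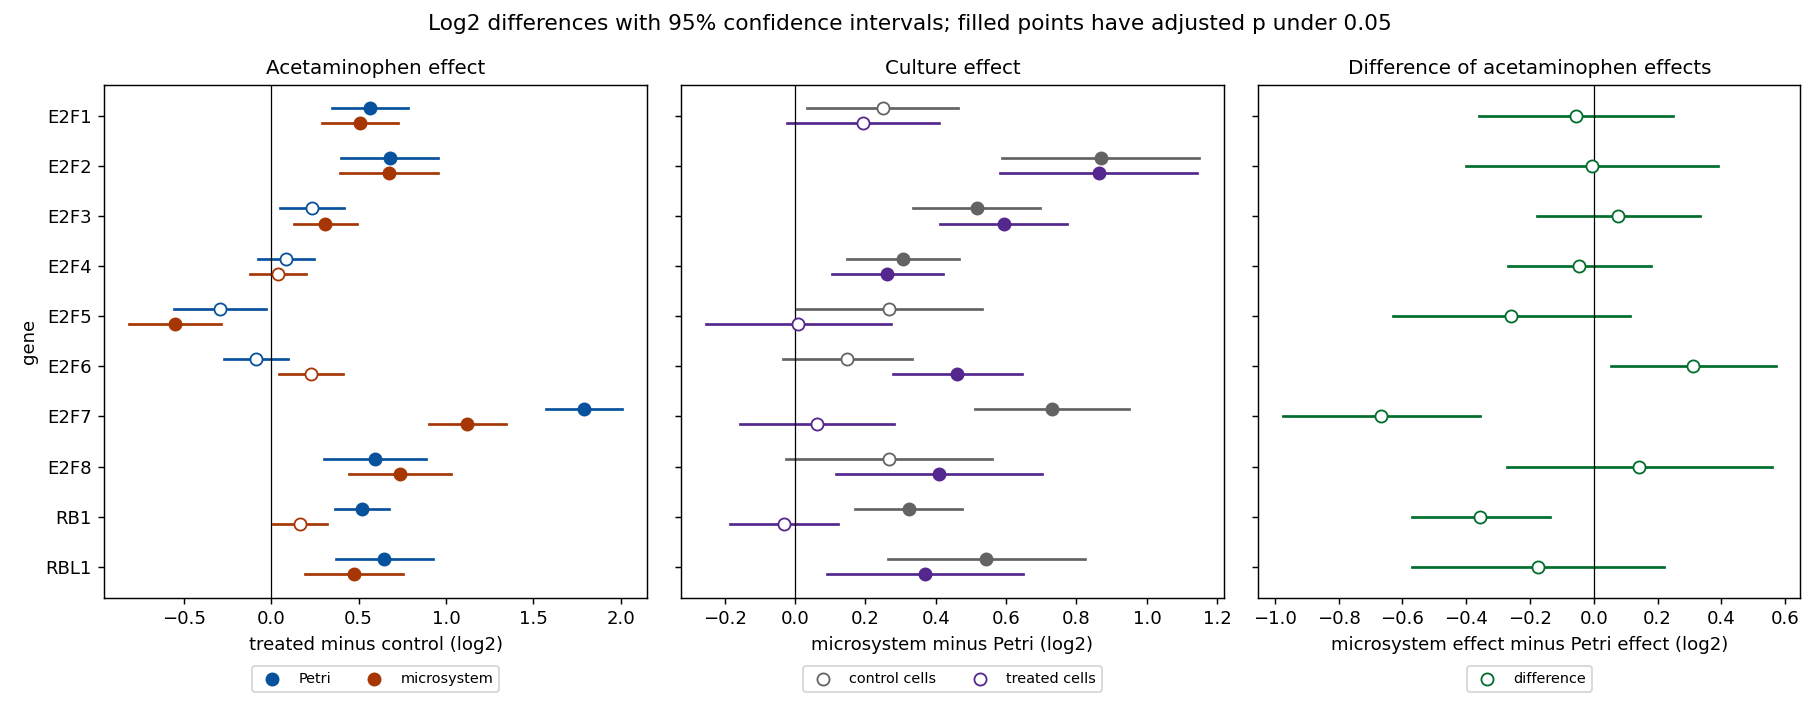
Log2 differences (x axes) of the 10 genes (y axis) with 95% confidence intervals from the limma fit; the left panel shows acetaminophen against control in each culture, the middle panel microsystem against Petri in control and treated cells, the right panel the difference of the acetaminophen effects, and filled points have adjusted p under 0.05. E2F7 stands at 1.79 and 1.12 in the left panel, E2F5 is below 0 in both cultures, and no point in the right panel is filled.

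The activators E2F1, E2F2 and E2F3 were set against the repressors E2F4 to E2F8 by their log2 differences, as a description without a test. In Petri dishes the median treatment difference was 0.56 for the activators (range 0.23 to 0.68) and 0.08 for the repressors (range -0.29 to 1.79). In the microsystem it was 0.51 (0.31 to 0.67) and 0.22 (-0.55 to 1.12). The repressors thus spanned both the largest rise, in E2F7, and the lowest value, in E2F5, and their median depended on the members counted. For E2F7 and E2F8 alone it was 1.19 in Petri dishes and 0.93 in the microsystem, above that of the activators. Without E2F6 the repressor median was 0.34 and 0.39. Between cultures the medians were 0.52 for activators and 0.27 for repressors among controls, and 0.59 and 0.26 among treated cells. The pocket proteins RB1 and RBL1 had a median treatment difference of 0.58 in Petri dishes and 0.32 in the microsystem.

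Of the DP partners, TFDP1 rose 1.72-fold with acetaminophen in Petri dishes (0.78 ± 0.14 SE, adjusted p = 0.00336). TFDP2 rose by 0.39 ± 0.12 (adjusted p = 0.0482), so that 2 of 2 tested partners rose there, against 8.38% of all genes. This and the following lists were chosen with earlier results of these data known. TFDP3 was under the filter. In the microsystem neither passed, with TFDP1 at 0.17 ± 0.14 (adjusted p = 0.469). TFDP1 had a mean of 7.90 ± 0.18 (SD, n = 3) in Petri controls, 8.68 ± 0.18 in Petri treated cells, 9.56 ± 0.24 in microsystem controls and 9.73 ± 0.17 in microsystem treated cells. Its culture difference among controls was 3.17-fold (1.66 ± 0.14, adjusted p = 1.4e-06). The call of TFDP2 was lost with quantile normalization, with no filter on dim probe sets, and without Petri control replicate 1, 2 or 3, Petri treated replicate 2 or 3, microsystem control replicate 3 or microsystem treated replicate 1, with adjusted p up to 0.16 over its alternatives.

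In the DREAM and MuvB complex, which holds E2F4 or E2F5 with a pocket protein on cell cycle promoters, 3 of 8 listed genes rose with acetaminophen in Petri dishes and 2 of 8 in the microsystem, and none fell. The shares of all genes that rose were 8.38% and 6.39%. FOXM1, a mitotic activator that joins the MuvB core, rose 1.68-fold in Petri dishes (0.75 ± 0.11, adjusted p = 0.000993) and 1.39-fold in the microsystem (0.48 ± 0.11, adjusted p = 0.0175). MYBL2, its partner B-MYB, rose 1.71-fold in Petri dishes (0.77 ± 0.16, adjusted p = 0.00911), with 0.52 ± 0.16 in the microsystem (adjusted p = 0.0656). LIN37 rose by 0.49 in Petri dishes (adjusted p = 0.00491), and LIN9 rose by 0.44 in the microsystem (adjusted p = 0.0286). The median differences were 0.38 and 0.20. Among controls 3 of 8 were higher in the microsystem (FOXM1, LIN52 and, named after its values were seen, RBBP4) and 3 of 8 lower, against 26.5% and 18.3% of all genes. Those lower included the DNA-binding LIN54 at -0.94 ± 0.08 (adjusted p = 1.4e-06) and LIN37 at -0.41 (adjusted p = 0.00268). With replicate number as a block (the replicate block) inside each culture, 6 of the 8 rose in Petri dishes, as with array weights, and with the block over all arrays 5 rose. Replicate numbers were taken to pair Petri treated and control arrays only. Microsystem and culture calls given with a block therefore rest on a pairing that was not taken to hold. Without microsystem treated replicate 3, or without both microsystem arrays numbered 3, the Petri count was 5. In the microsystem the count was 0 without microsystem treated replicate 2, and 1 without microsystem control replicate 1 or 2, microsystem treated replicate 1 or 3, or both arrays numbered 3. With only the arrays of the microsystem fitted it was also 0, with FOXM1 at an adjusted p of 0.0858 and LIN9 at 0.0658. FOXM1 lost its microsystem call without microsystem treated replicate 1 (adjusted p = 0.0504) or 2 (0.0601). LIN9 lost it without microsystem control replicate 1 or 2 or microsystem treated replicate 2 or 3 (adjusted p up to 0.0903), and without both arrays numbered 3 (0.0898). MYBL2 gained a microsystem call with either form of the replicate block and without Petri control replicate 1 or microsystem control replicate 3 (adjusted p from 0.012 to 0.166 over its alternatives). Among controls the counts were 1 higher and 2 lower without Petri control replicate 1 or microsystem control replicate 3. The call of LIN52 among controls (0.34, adjusted p = 0.0405) was lost in 9 of 22 alternatives, with adjusted p from 0.0128 to 0.164. They included quantile normalization (0.0827), array weights (0.088), only the arrays compared (0.0518) and the fit without both arrays numbered 3 (0.121).

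RBL2, the remaining pocket protein gene and the third DREAM gene that was lower, was named after its values were seen. Its mean was 8.27 ± 0.18 (SD, n = 3) in Petri controls, 8.52 ± 0.09 in Petri treated cells, 8.02 ± 0.03 in microsystem controls and 8.15 ± 0.06 in microsystem treated cells. Its treatment differences were 0.25 ± 0.09 SE in Petri dishes (adjusted p = 0.108) and 0.14 ± 0.09 in the microsystem (adjusted p = 0.362). It was lower in the microsystem by 0.25 ± 0.09 among controls (log2 difference -0.25, adjusted p = 0.0372) and by 0.36 ± 0.09 among treated cells (-0.36, adjusted p = 0.00647), where RB1 and RBL1 were not lower. The call among controls was lost without Petri control replicate 1 (-0.15, adjusted p = 0.166) and without any 1 of the microsystem control replicates, and with only the arrays compared, with array weights or without both microsystem arrays numbered 3. The Petri treatment difference passed with the replicate block inside each culture (adjusted p = 0.0471), with array weights, and without Petri control replicate 1 (adjusted p = 0.0274, with its alternatives between 0.00996 and 0.33).

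Of 9 genes for G1 cyclins, their kinases and the activating phosphatase CDC25A, 4 rose and 1 fell with acetaminophen in Petri dishes, and none rose and 1 fell in the microsystem. The shares over all genes were 8.38% risen and 1.98% fallen in Petri dishes, and 6.39% and 2.67% in the microsystem. CDC25A rose 1.72-fold in Petri dishes (0.78 ± 0.13, adjusted p = 0.00223), CCNE1 (cyclin E1) 1.49-fold (0.57 ± 0.12, adjusted p = 0.00955), CCNE2 (cyclin E2) 1.60-fold (0.68 ± 0.18, adjusted p = 0.0283) and CDK2, the kinase of both E cyclins, 1.38-fold (0.47 ± 0.14, adjusted p = 0.0426). In the microsystem CCNE1 was at 0.22 (adjusted p = 0.271) and CCNE2 at 0.54 (adjusted p = 0.0748). CCND2 (cyclin D2) was the 1 that fell, by 0.36 in Petri dishes (adjusted p = 0.0314) and by 0.47 in the microsystem (adjusted p = 0.0117). Among controls 6 of 9 were higher in the microsystem, among them CDK4 (0.72, adjusted p = 0.000266) and CCND3 (0.62, adjusted p = 0.000181), and CCND2 was lower (-0.32, adjusted p = 0.0176), against the same 26.5% and 18.3%. The Petri count was 2 or 3 genes in either direction without Petri control replicate 1, 2 or 3 or Petri treated replicate 2 or 3, fits in which CDK2 lost its call, CCNE2 lost it without 4 of them (not Petri control replicate 1) and CCND2 without 4 (not Petri control replicate 3). CDK2 also lost it without microsystem control replicate 2 or microsystem treated replicate 1 or 2. CCNE2 and CDC25A gained a microsystem call without microsystem control replicate 3, and CCNE2 with the replicate block inside each culture (adjusted p = 0.0158). Without that array 2 rose and 1 fell in the microsystem, and without microsystem control replicate 1 it was 2 that fell. Among controls CCND2 lost its call without Petri control replicate 1 or 2 or microsystem control replicate 3, and CCNE2 (0.63, adjusted p = 0.0113) without Petri control replicate 3.

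Of 6 tested genes for inhibitors of cyclin-dependent kinases, only CDKN1A (p21) passed in these 3 comparisons, where 8.38%, 6.39% and 26.5% of all genes rose. It rose 1.59-fold with acetaminophen in Petri dishes (0.67 ± 0.10, adjusted p = 0.00145) and 1.43-fold in the microsystem (0.51 ± 0.10, adjusted p = 0.00968), and was 1.5-fold higher in the microsystem among controls (0.59 ± 0.10, adjusted p = 0.000502). Its microsystem treatment call was lost without microsystem treated replicate 2 (adjusted p = 0.0526, the highest in a range from 0.00453). With array weights 1 gene of this list also fell in Petri dishes. In the microsystem 1 fell with quantile normalization and with the replicate block inside each culture. With quantile normalization 1 was also lower in the microsystem among controls. Of 5 genes that act in the breakdown of E2F proteins, CCNF (cyclin F) rose 1.68-fold in Petri dishes (0.75 ± 0.11, adjusted p = 0.00125) and 1.57-fold in the microsystem (0.65 ± 0.11, adjusted p = 0.00456). UBE2C (0.56, adjusted p = 0.0114) and FZR1 (0.33, adjusted p = 0.0392) also rose in the microsystem. Thus 1 of 5 rose in Petri dishes and 3 of 5 in the microsystem, against 8.38% and 6.39% of all genes. The Petri count was 2 with the same replicate block, 3 with the block over all arrays and 4 with array weights. It was also 2 with only the arrays compared, with the filter at the 60th percentile, and without any 1 of the microsystem controls, when UBE2C passed. FZR1 lost its microsystem call without Petri control replicate 2, Petri treated replicate 2 or 3, microsystem control replicate 2 or 3, or microsystem treated replicate 2 or 3, with adjusted p up to 0.12. Without both microsystem arrays numbered 3 it was at 0.24 (adjusted p = 0.236), and with only the arrays compared FZR1 (0.0961) and UBE2C (0.0673) both lost their calls, which left 1 of 5. Among controls FZR1 was lower in the microsystem (-0.35, adjusted p = 0.00676), and without microsystem control replicate 1 CCNF was among 2 genes that were higher.

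None of 9 tested polycomb-type partners of E2F6 passed with acetaminophen in limma in either culture, with median differences of 0.05 and 0.02. The lowest adjusted p was that of RING1 in both, at 0.24 ± 0.10 in Petri dishes (adjusted p = 0.126) and 0.24 ± 0.10 in the microsystem (adjusted p = 0.137), both with an unadjusted p under 0.05. RING1 passed in Petri dishes without Petri treated replicate 1 (adjusted p = 0.0299, with its alternatives between 0.00664 and 0.403). Among controls 3 of 9 were higher in the microsystem and 2 of 9 lower, against 26.5% and 18.3% of all genes. They were L3MBTL2 at 0.75 (adjusted p = 1.1e-05), MGA at 0.38 (adjusted p = 0.00969), CBX3 (named after its values were seen) at 0.29 (adjusted p = 0.00911), RYBP at -0.69 (adjusted p = 2.2e-05) and YAF2 at -0.46 (adjusted p = 0.0015). The call of MGA was lost without Petri control replicate 3 (adjusted p = 0.051, the highest in a range from 0.00223).

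Among 37 tested G1/S target genes of E2F, 26 rose and none fell with acetaminophen in Petri dishes, and 10 rose and none fell in the microsystem. The shares of all genes that rose were 8.38% and 6.39%, and the list's median differences were 0.67 and 0.33. CDC6, which loads the replicative helicase, rose 2.51-fold in Petri dishes (1.33 ± 0.19, adjusted p = 0.000745) and 1.57-fold in the microsystem (0.65 ± 0.19, adjusted p = 0.0458). Thymidine kinase TK1 rose 2.36-fold (1.24 ± 0.13, adjusted p = 0.000113) and 1.71-fold (0.77 ± 0.13, adjusted p = 0.00371). The DNA polymerase alpha subunit POLA2 rose 2.22-fold (1.15 ± 0.12, adjusted p = 9.1e-05) and 1.63-fold (0.70 ± 0.12, adjusted p = 0.00329). BRCA1 rose 2.27-fold and 1.83-fold. CDC45, a subunit of the active helicase, rose by 0.82 in Petri dishes (adjusted p = 0.00124) and 1.57-fold in the microsystem (adjusted p = 0.00678). None of the 37 passed in the difference of treatment effects, whose median was -0.31 beside -0.02 over all genes. Among controls 22 of 37 were higher in the microsystem, against 26.5% of all genes, and 1, the licensing factor CDT1 (named after its values were seen), was lower (-0.76, adjusted p = 0.00033). The median was 0.43, and the rises were led by CDC6 (3.09-fold), the checkpoint adaptor CLSPN (2.62-fold), GINS1 (2.10-fold) and MCM6 (1.94-fold). The Petri count was 17 without Petri treated replicate 2 or 3. The microsystem count was 4 without microsystem treated replicate 1 or 2, 6 without microsystem control replicate 1 or 2 or microsystem treated replicate 3, 16 without microsystem control replicate 3, and 9 without both arrays numbered 3. It was 4 with only the arrays compared, 19 with the replicate block inside each culture and 16 with the block over all arrays. CDC6 lost its microsystem call without any 1 of 9 arrays, all but Petri control replicate 1, Petri treated replicate 1 and microsystem control replicate 3 (adjusted p up to 0.115), and with only the arrays compared (0.0969) or no filter on dim probe sets (0.0566), and was at 0.43 without microsystem control replicate 1.

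Among 27 tested G2/M target genes of the DREAM complex, 12 rose in Petri dishes and 15 in the microsystem with acetaminophen, and none fell. The shares of all genes that rose were 8.38% and 6.39%, and the list's medians were 0.46 and 0.56. With the replicate block inside each culture, 22 rose in Petri dishes and 24 in the microsystem, where replicate numbers were not taken to pair the arrays. The mitotic kinase CDK1 rose 1.57-fold in Petri dishes (0.65 ± 0.16, adjusted p = 0.0198) and 1.76-fold in the microsystem (0.81 ± 0.16, adjusted p = 0.00771). The cytokinesis motor KIF23 rose 1.66-fold (0.73 ± 0.17, adjusted p = 0.0164) and 1.71-fold (0.78 ± 0.17, adjusted p = 0.0149). KIF2C (1.62-fold) and BIRC5 (survivin, 1.58-fold) led in Petri dishes with them, and CDC25C (1.73-fold) and CENPE (1.69-fold) in the microsystem. Cyclin B1 (CCNB1) was at 0.43 ± 0.16 (adjusted p = 0.103) and 0.47 ± 0.16 (adjusted p = 0.0802). With that block it passed in both cultures (adjusted p = 0.00965 and 0.00722). Among controls none of the 27 was higher in the microsystem and 5 were lower (median -0.15), against 26.5% and 18.3% of all genes, with CDK1 at -0.70 (adjusted p = 0.00261), CCNB2 at -0.54 (adjusted p = 0.0272), TPX2 at -0.49 (adjusted p = 0.0105), CDCA8 at -0.44 (adjusted p = 0.018) and ECT2 (named after its values were seen) at -0.30 (adjusted p = 0.0122). MYBL2, the E cyclins, CDC25A and UBE2C each stand in more than 1 list.

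These G2/M counts moved with single arrays and with the fit. In Petri dishes the count was 4 without Petri control replicate 2 or Petri treated replicate 2, 5 without Petri control replicate 1 or Petri treated replicate 3, 21 without microsystem control replicate 1, 20 without both microsystem arrays numbered 3, 22 with only the arrays compared and 24 with array weights. In the microsystem it was 8 without microsystem treated replicate 3, 16 without both arrays numbered 3 and 3 with only the arrays compared, where CDK1 (adjusted p = 0.0592) and KIF23 (0.0636) lost their calls. Among controls 11 were lower without microsystem control replicate 3 and without both arrays numbered 3, 8 with the replicate block over all arrays, and 3 without Petri control replicate 3. In Petri dishes the calls of CDK1, KIF23 and KIF2C were lost without Petri control replicate 1 or 2 or Petri treated replicate 2 or 3 (CDK1 also without Petri control replicate 3), with adjusted p up to 0.075, 0.0701 and 0.0807. In the microsystem KIF23 also lost its call without microsystem treated replicate 3 (adjusted p = 0.0513). CCNB1 passed in Petri dishes without microsystem control replicate 1, in the microsystem without microsystem control replicate 3, and in both without both microsystem arrays numbered 3 (adjusted p = 0.014 and 0.0389). Among controls CCNB2 lost its call without Petri control replicate 2 or 3 or microsystem control replicate 1 (-0.29), and CDCA8 without microsystem control replicate 1 (-0.25).

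**Figure D3:**
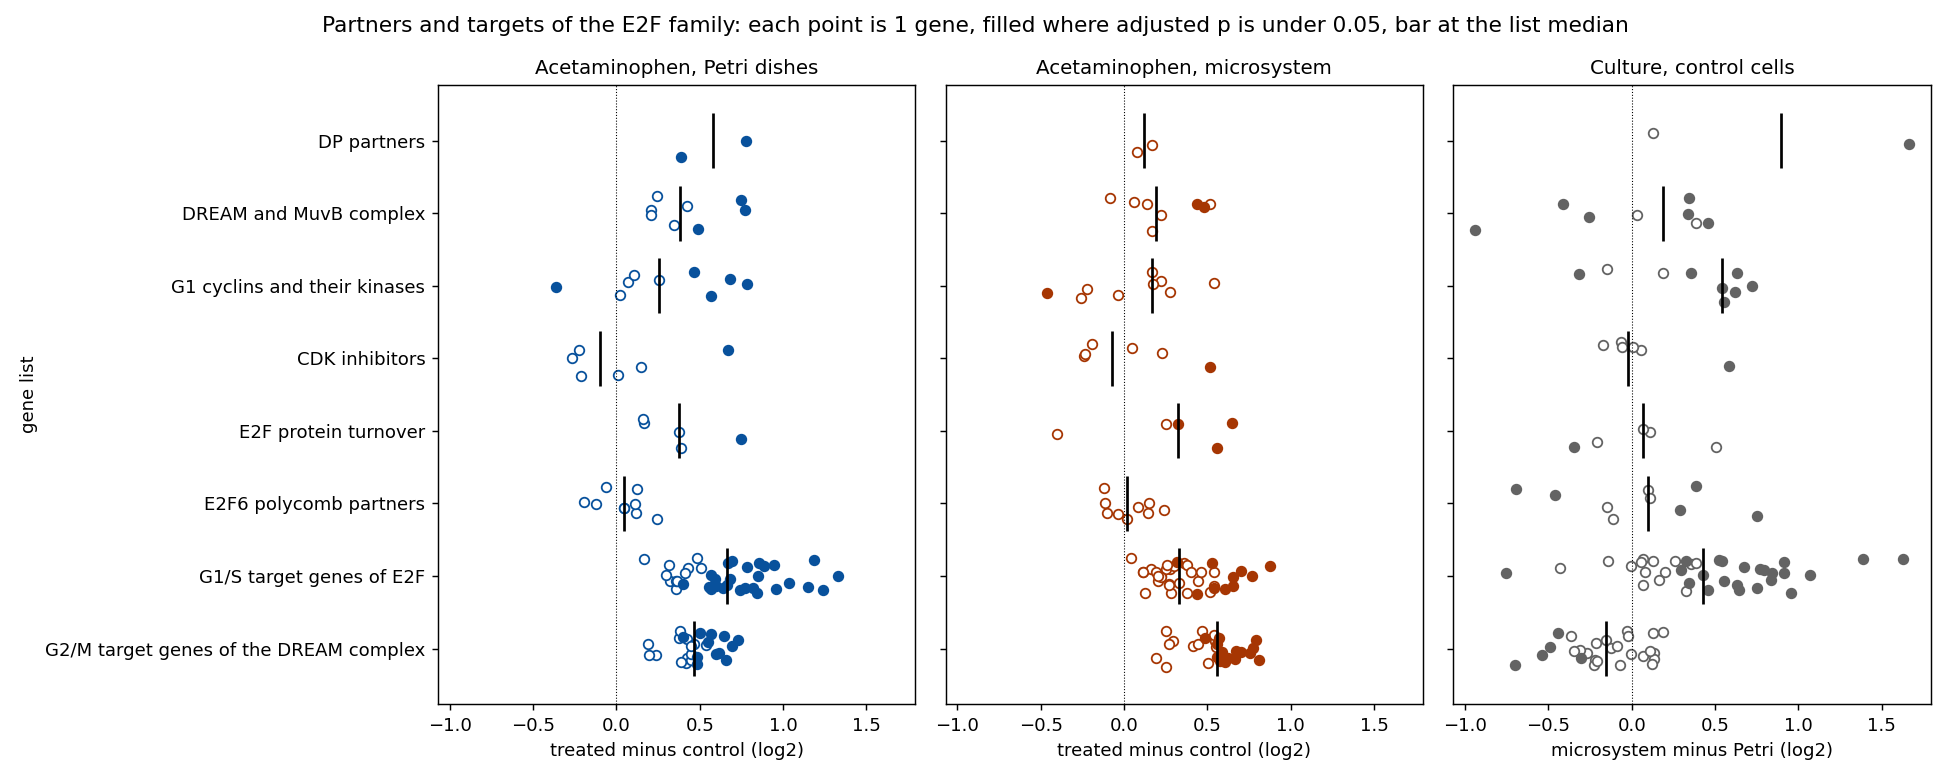
Log2 differences (x axes) of each tested gene in 8 lists of E2F partners, regulators and targets (y axis), for acetaminophen in Petri dishes, acetaminophen in the microsystem, and microsystem against Petri among controls; each point is 1 gene, filled where adjusted p is under 0.05, and bars are list medians. In the right panel the G1/S targets have their median at 0.43 and the G2/M targets at -0.15.

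Over the 12 arrays, which fall into 4 groups and share normalization, some of the 10 genes tracked each other, as a description without a test. Pearson's r was 0.95 between E2F1 and E2F8, 0.95 between E2F7 and RB1, 0.94 between E2F1 and E2F7, 0.92 between RBL1 and E2F8 and 0.92 between E2F2 and E2F3, and -0.60 between E2F5 and E2F7. For deviations from the group means the largest of the 45 r values in size were 0.83 between E2F7 and E2F8, 0.81 between E2F5 and RBL1, 0.76 between E2F1 and RB1, 0.74 between RBL1 and E2F8, -0.74 between E2F2 and E2F5 and 0.70 between E2F1 and E2F8. They were 0.42 between E2F7 and RB1, 0.25 between E2F5 and E2F7 and 0.00 between E2F2 and E2F3. Over the 12 arrays E2F5 and RBL1 had an r of -0.23, so the order of the pairs differed between the 2 measures.

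The genes whose pattern over the 12 arrays was most like that of a member were chosen as the 3 with the highest Pearson r among the 13199. For E2F1 they were SLC29A1 (r = 0.975), NCAPG2 (0.973) and RAD54L (0.972). For E2F2 they were ACSL1 (0.985), CRIP2 (0.981) and SHKBP1 (0.978). For E2F7 they were MASTL (0.982), NEMP1 (0.980) and DNMT1 (0.978). For E2F8 they were CREG1 (0.965), TCTN2 (0.961) and TICRR (0.957). For RBL1 they were HAT1 (0.990), ERCC6L (0.981) and VRK1 (0.981).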

How the data were processed

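RNA of HepG2C3A cells was measured on 12 arrays, 3 in each of 4 groups taken from the labels. Each deposited value is a probe set's log2 intensity, which the authors obtained by robust multi-array average (RMA) using Affymetrix Expression Console, as the submitters' processing notes name them. The sources used here give no versions or genome build. They were used without new normalization, and array medians lay between 5.56 and 5.63. The number of arrays limits the precision. Of 32321 probe sets, 19158 had 1 symbol in the platform annotation, 1388 several and 11775 none here. The 1-symbol probe sets covered 18404 genes, and the brightest probe set on average stood for a gene. Genes with at least 3 arrays above the array's 40th percentile were kept (13199). One linear model over the 12 arrays, with a coefficient for each group, was fitted by limma 3.58.1 and eBayes in R 4.3.3, with two-sided tests and Benjamini-Hochberg adjustment over 13199 genes. All adjusted p-values are from limma, and SE is that of the fit. Python 3.11.15, pandas 2.3.3, matplotlib 3.10.9 and the R package data.table (version 1.17.8) were also used. The procedure was tested on simulated data.

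The members and lists were chosen with earlier results of these data known. The rule named all 10 members and, per list and in the treatment effects and culture in controls, the up to 4 called genes that differed most or, where none passed, the gene with the smallest adjusted p. It also named CDKN1A, CCNE1, CCNE2, CDC6, MYBL2 and CCNB1. Deviations from group means of same-numbered Petri treated and control arrays correlated across genes at 0.48, 0.19 and 0.31, all above 0.1, so replicate numbers were taken to pair these arrays. The main fit did not use this pairing, so its p-values for the Petri treatment ignore it. Only the fits with a replicate block use it. Alternatives were 2 forms of replicate block, other normalizations, filters and probe set rules, array weights, an intensity trend, leaving out arrays and a minimum of 1.5-fold.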

Additional observations from a re-analysis of the deposited data

How the results depend on the processing

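Of 1170 values of the 10 genes under alternatives other than a minimum fold, 1122 kept their side of the threshold, 35 lost a call and 13 gained one, and none that was called changed direction. Some alternatives could not move a difference. Each gene had 1 probe set, so the probe set rules left it the same, as did leaving out an array outside the comparison. The 10 genes' counts of calls were 6 in Petri dishes, 7 in the microsystem and 6 in each culture comparison. Tested against a minimum of 1.5-fold they were 1, 0, 0 and 0. With only the arrays compared, the microsystem count was 4. Leaving out 1 array gave 4 to 7 calls in the microsystem, 5 to 6 in Petri dishes, 6 to 8 for culture in controls, 4 to 6 for culture in treated cells and 0 to 1 for the difference of effects, where array weights also gave 1 (E2F7). Median changes of activators ranged from 0.45 to 0.65 in Petri dishes and from -0.082 to 0.086 in the difference when 1 array was left out, and array weights gave 0.072 in the difference. Median changes of repressors were 0.34, 0.39, 0.16 and -0.15 without E2F6 (Petri dishes, microsystem, culture in treated cells, difference) and 1.19, 0.93, 0.50 and -0.26 for the atypical members alone (Petri dishes, microsystem, culture in controls, difference). Over all genes the calls were 1367 in Petri dishes, 1196 in the microsystem and 4 in the difference. With the replicate block within each culture they were 2180, 2109 and 24, with array weights 3602 in Petri dishes and 54 in the difference, with only the arrays compared 446 in the microsystem, and with a minimum of 1.5-fold 15, 3 and 0, against 571 and 500 in the culture comparisons, where 5926 and 5467 were called. Leaving out 1 array gave as few as 701 in Petri dishes (without Petri treated replicate 2) and 459 in the microsystem (without microsystem treated replicate 2), and leaving out both microsystem arrays numbered 3 gave 677. The difference had 18 calls with the replicate block over all arrays, 10 with an intensity trend, 7 with quantile normalization, 0 with every probe set by itself and 1 to 13 with 1 array left out. The replicate block changed no call of the 10 genes except over all arrays in culture in controls, where E2F1 (adjusted p = 0.0434) and E2F8 (0.0351) passed, for a count of 8. Same-numbered arrays correlated at 0.11, 0.07 and 0.60 for the microsystem treatment, 0.18, -0.03 and 0.13 between control groups and 0.14, -0.14 and 0.13 between treated groups, so the numbers were not taken to pair those arrays. The cause of a lost call was not tested. Leaving out an array also changes the shared estimate of spread, so a call can be lost while its difference stays the same. RBL1 in the microsystem, without Petri treated replicate 2, is such a case (0.473, adjusted p = 0.0533). The block within each culture could not be fitted to culture comparisons, and lists were not counted with every probe set by itself.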
